A study of Mus musculus with 10 samples.

Results

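The insulin and insulin-like growth factor (IGF) genes described here are 10 genes of the route by which muscle cells receive insulin and IGF signals: the ligands Igf1 and Igf2, the binding proteins Igfbp3 and Igfbp5, the receptors Insr and Igf1r, the adaptors Irs1 and Irs2, the phosphatidylinositol 3-kinase subunit Pik3r1 and the adaptor Grb10. They were taken by name, and all their single-gene probe sets on the array were kept. This gave 27 probe sets, out of 45037 on the array, and 10 genes, out of 18193 with a single-gene probe set. RNA of the gastrocnemius, the large muscle of the calf, from 5 Skn-1/Pou2f3-deficient and 5 wild-type male mice had been hybridised to Affymetrix expression arrays, 1 mouse per array. Pou2f3, also called Skn-1, encodes a transcription factor of the POU family that tuft cells and sweet, umami and bitter taste cells need. Every mouse was 12 to 16 weeks old, ate chow, and was fasted for 18 h before dissection, so there is no fed group. The deficient line arose on a mixed 129 x C57BL/6J background, and C57BL/6J mice then served as its mates for over 10 generations. Neither the removed part of Pou2f3 nor the parentage of the wild types is given in the labels.

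Insulin and the IGFs bind receptor tyrosine kinases at the cell surface, and the activated receptors phosphorylate the insulin receptor substrates Irs1 and Irs2. These recruit phosphatidylinositol 3-kinase, whose lipid product activates the kinase Akt, which promotes glucose uptake, glycogen and protein synthesis and keeps FoxO transcription factors out of the nucleus. In fasting insulin is low, FoxO factors become active, and Irs2 and Insr are among the genes that they can induce. The comparison asks whether fasted muscle of Skn-1 deficient mice holds other levels of these transcripts than that of wild types.

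The values are deposited expression values per array, read as log2, and they had an unusual spread. Of all probe sets, 86.2% had an SD over the 10 arrays at or below 0.01, and these are called low-variation; the size of a difference cannot be read from them. Of the 27 probe sets here, 15 varied on an ordinary scale and 12 were low-variation. The ordinary ones belonged to 8 genes, while Igf2 and Grb10 had low-variation probe sets alone. All 15 ordinary probe sets had means above 6.23, the median of all probe-set means. With 5 arrays a group, precision is limited by their number; the labels call them biological replicates. The single probe set of Pou2f3 was low-variation, at 6.4704 to 6.4711 in deficient and 6.4707 to 6.4712 in wild-type arrays, and so does not check the labels. All 10 measured skeletal muscle markers had means from 12.7 to 13.96, near the top of the scale. In 5 arrays genes of other tissues or cell types stood more than 0.5 above the median of the 10 arrays. The epidermis and hair list did so in deficient 1, deficient 4, wild type 1 and wild type 3. The B and T lymphocyte, adipocyte and satellite cell lists did so in deficient 5 and wild type 3. The macrophage list did so in wild type 3. In the satellite cell list 2 of the 7 measured genes varied. These arrays are called the 5 marker-carrying arrays. The part of those tissues and cells in the results was not tested. Values that leave these arrays out are given for each of the 8 genes. Such fits compare deficient 2 and deficient 3 alone with wild type 2, wild type 4 and wild type 5.

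No insulin or IGF gene passed the test between the genotypes. Of the 27 probe sets 0 passed an adjusted p of 0.05 (limma, Benjamini-Hochberg over 45037 probe sets), where 0.191% of all probe sets passed (0.155% higher and 0.0355% lower in deficient mice), and 0.966% of the ordinary ones. At an unadjusted p under 0.05 there were 0 of the 15 ordinary probe sets, against 9.92% of the 6209 ordinary probe sets on the array. Among the 12 low-variation ones, 1 probe set of Insr had an unadjusted limma p of 0.0196 (adjusted p = 0.600), where 6.62% of all probe sets were under 0.05, and no readable size. None of the 27 separated the 5 deficient arrays from the 5 wild-type arrays without overlap, as 1.60% of all probe sets did. In 11 of the 15 ordinary probe sets the deficient mean was the higher one, against 49.2% over all ordinary probe sets. This count was 5 of 15 without wild type 1 and between 9 and 13 when another array was left out. The median difference over the 15 was 0.05 on the log2 scale, and over all 6209 ordinary probe sets it was −0.0021.

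**Figure D1:**
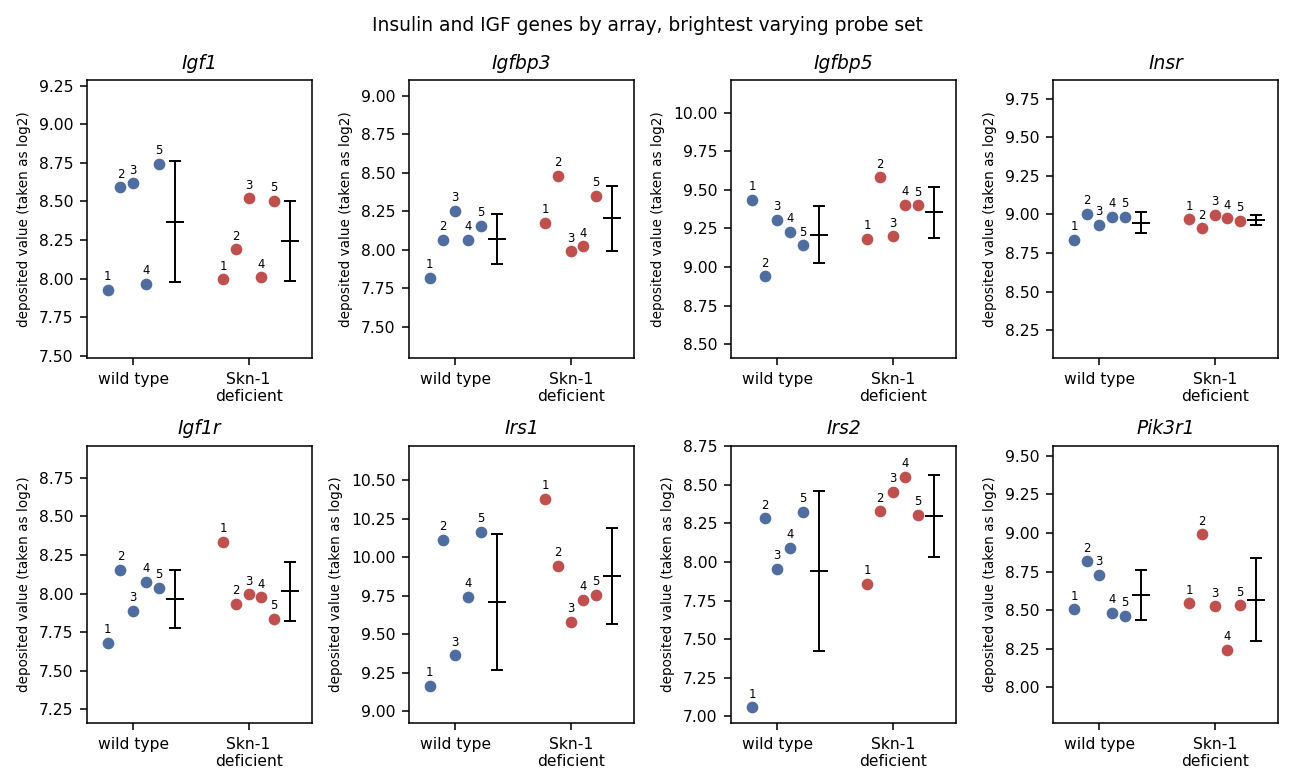
Deposited value (taken as log2) by array for the brightest ordinary probe set of each of 8 genes. Points are arrays numbered by replicate, and the bars beside them are group mean and SD (n = 5). The groups overlap in every panel, and wild type 1 is the lowest array in 6 of the 8.

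Among the ligands, Igf1 varied widely between animals within each genotype. Igf1 is the growth factor that liver and muscle make in response to growth hormone and feeding, and muscle uses it for growth and repair. Its brightest probe set (1437401_at) read 7.99, 8.19, 8.52, 8.01 and 8.51 in deficient 1 to 5 and 7.93, 8.59, 8.62, 7.96 and 8.74 in wild type 1 to 5. Apart from deficient 2, the arrays lay either near 8.0 or above 8.5, each genotype had arrays of both kinds, and the groups overlapped throughout. The mean was 8.24 ± 0.26 (SD, n = 5) in deficient and 8.37 ± 0.39 in wild-type mice, a log2 difference of −0.12 ± 0.20 SE (limma adjusted p = 0.986). In fold terms deficient muscle had 0.917 times the wild-type level, with a 95% interval from 0.664 to 1.27. Leaving out 1 array at a time gave Igf1 differences from −0.24 (without wild type 1) to −0.03 (without wild type 5), and leaving out the 5 marker-carrying arrays gave −0.08. The other 3 probe sets of Igf1 differed by −0.12, 0.0033 and 0.02 (limma adjusted p = 0.980 to 0.9996). Since these are whole muscles, fewer cells of a type and less RNA per cell cannot be told apart.

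Igf2, the growth factor of fetal tissues that is also made by differentiating myoblasts, could not be followed. Its pair of probe sets stood at 7.62 and 5.75 on average over the 10 arrays, with SDs of 0.000194 and 0.00017.

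Igf1 was also set against the macrophage markers, array by array. All 10 listed macrophage markers were measured and varied, among them Adgre1, Cd68 and the C1q genes. Their mean deviation, each marker taken from its own median over the 10 arrays, ran from −0.27 to 0.41 in deficient and from −0.45 to 0.61 in wild-type arrays. Wild type 2 was high in Igf1 and slightly below the median in this list, at −0.07. Over the 10 arrays Igf1 correlated with the list at r = 0.787 (permutation p = 0.00832) and rho = 0.782 (permutation p = 0.0104). Within the genotypes r was 0.882 in deficient and 0.787 in wild-type arrays, and without wild type 1 and wild type 5, the arrays farthest from the median of Igf1, it was 0.736. After adjustment over the 48 relations computed between 8 genes and 6 marker lists, none passed (permutation, adjusted p = 0.200 for this one). The lists were chosen with earlier results known, and the part of macrophages in the Igf1 values was not tested.

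The binding proteins carry IGFs outside the cell and hold them back from, or release them to, the receptor. Igfbp3 is the main carrier in blood, and Igfbp5 binds to the matrix and is the form that differentiating muscle cells secrete. The brightest probe set of Igfbp3 (1423062_at) read 8.18, 8.48, 7.99, 8.02 and 8.35 in deficient 1 to 5 and 7.82, 8.06, 8.25, 8.07 and 8.16 in wild type 1 to 5. Deficient 2 and 5 lay above all wild types, and wild type 1 lay below all other arrays. The log2 difference was 0.13 ± 0.12 SE (limma adjusted p = 0.949). It ran from 0.06 (without deficient 2) to 0.19 (without deficient 3) when 1 array was left out, and for Igfbp3 it was 0.14 without the 5 marker-carrying arrays. The second probe set of Igfbp3 ran from 7.48 to 7.95 in deficient and from 7.32 to 7.92 in wild-type arrays and differed by −0.0076 ± 0.13 SE (limma adjusted p = 0.9996).

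Igfbp5 had 1 ordinary probe set (1452114_s_at). It read 9.18, 9.58, 9.20, 9.41 and 9.40 in deficient 1 to 5 and 9.43, 8.94, 9.31, 9.23 and 9.14 in wild type 1 to 5. Deficient 2 was the highest array and wild type 2 the lowest, and the other 8 arrays of the genotypes were mixed. The means were 9.35 ± 0.17 (SD, n = 5) and 9.21 ± 0.19, or 1.11 times the wild-type level with a 95% interval from 0.931 to 1.31 (limma adjusted p = 0.935). Leaving out 1 array gave Igfbp5 differences from 0.08 (without wild type 2) to 0.20 (without wild type 1). Igfbp5 had a difference of 0.29 ± 0.17 SE without the 5 marker-carrying arrays (limma adjusted p = 0.894).

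The receptors come next on the route, and the insulin receptor was the steadiest of the 8 genes with an ordinary probe set. Of its 3 probe sets 1 was ordinary and 2 were low-variation. Insr, the insulin receptor, read 8.97, 8.91, 8.999, 8.97 and 8.96 in deficient 1 to 5 and 8.84, 9.003, 8.93, 8.98 and 8.98 in wild type 1 to 5 (1434446_at). Its SD over the 10 arrays was 0.0505, the smallest of the 15 ordinary probe sets, and wild type 1 alone lay below 8.9. Deficient muscle had 1.01 times the wild-type level of Insr, and the 95% interval ran from 0.959 to 1.06 (limma adjusted p = 0.991). On the log2 scale the Insr difference was 0.01, and −0.035 without the 5 marker-carrying arrays.

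Igf1r, the receptor for both IGFs, had 2 ordinary probe sets among its 5. The brighter one (1428967_at) read 8.34, 7.93, 7.996, 7.97 and 7.84 in deficient 1 to 5 and 7.68, 8.15, 7.89, 8.08 and 8.04 in wild type 1 to 5. Deficient 1 was the highest array and wild type 1 the lowest, and the 8 in between were mixed. Deficient muscle had 1.03 times the wild-type level, with an interval from 0.861 to 1.24 (limma adjusted p = 0.993), and the second probe set gave 1.03 times with an interval from 0.894 to 1.19 (limma adjusted p = 0.988). Without the 5 marker-carrying arrays the Igf1r difference was −0.12 ± 0.05 SE, the other sign, at an unadjusted p of 0.0630 (limma adjusted p = 0.855).

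The insulin receptor substrates stand between the receptors and the kinase. Irs1 and Irs2 dock at the activated receptors and pass the signal to phosphatidylinositol 3-kinase, and Irs2 is the one known to respond to fasting in liver. The 250 bases before their starts are shown, with that of Igf1r. Igf1r is shown because its r with Irs1 was the highest among the gene pairs, though it did not pass after adjustment (permutation, adjusted p = 0.0652). Irs1 and Irs2 are shown because, of the 9 genes with a window, the receptor substrates alone hold an E-box there. The sequences are from RefSeq with the GRCm38.p6 build, at chr1:82291440-82291689 on the minus strand for Irs1, chr8:11008930-11009179 on the minus strand for Irs2 and chr7:67952007-67952256 on the plus strand for Igf1r. Capitals mark the E-box CACGTG and the GC box GGGCGG, on either strand.
Irs1: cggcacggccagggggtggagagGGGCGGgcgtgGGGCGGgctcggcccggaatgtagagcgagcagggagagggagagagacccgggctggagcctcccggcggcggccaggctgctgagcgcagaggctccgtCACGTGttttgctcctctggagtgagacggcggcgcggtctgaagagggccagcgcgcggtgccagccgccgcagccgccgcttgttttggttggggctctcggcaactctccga
Irs2: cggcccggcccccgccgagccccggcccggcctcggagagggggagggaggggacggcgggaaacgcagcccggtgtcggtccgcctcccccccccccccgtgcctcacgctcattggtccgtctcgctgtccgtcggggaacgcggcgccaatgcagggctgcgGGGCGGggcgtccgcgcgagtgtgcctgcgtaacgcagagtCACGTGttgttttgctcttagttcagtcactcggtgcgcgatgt
Igf1r: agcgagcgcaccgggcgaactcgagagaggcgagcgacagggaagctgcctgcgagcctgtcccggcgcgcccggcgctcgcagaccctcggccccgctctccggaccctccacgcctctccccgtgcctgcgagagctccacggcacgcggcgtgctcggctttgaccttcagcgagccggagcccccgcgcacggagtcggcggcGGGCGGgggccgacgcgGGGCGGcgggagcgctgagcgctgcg
The E-box starts 115 bases before the start of Irs1 and 44 bases before that of Irs2, and 6.04% of the 32536 such windows in the table hold one. GC boxes, found in 33.0% of windows, number 2 in Irs1, 1 in Irs2 and 2 in Igf1r. They are not particular to these genes: of the 14 windows of the 9 genes, 7 windows of 6 genes hold one. The FoxO core TGTTTAC, searched on both strands and found in 3.17% of all windows, is in 0 of the 14 windows that the table holds for 9 of the 10 genes, Insr having no entry. The GC box letters and the E-box letters do not overlap in these 3 windows. A match is a description of letters and not a binding site.

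Irs1 had a single probe set (1423104_at). It read 10.38, 9.94, 9.58, 9.72 and 9.75 in deficient 1 to 5 and 9.17, 10.11, 9.36, 9.74 and 10.16 in wild type 1 to 5. Deficient 1 was the highest array and wild type 1 the lowest, 1.21 apart on the log2 scale, and the genotypes overlapped. The means were 9.88 ± 0.31 (SD, n = 5) and 9.71 ± 0.44, so the log2 difference of 0.17 ± 0.24 SE was smaller than either SD (limma adjusted p = 0.977). The Irs1 difference was 0.03 without wild type 1 and 0.04 without deficient 1, and without the 5 marker-carrying arrays it was −0.24 ± 0.20 SE (limma adjusted p = 0.935).

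Over all 10 arrays Irs2 had the largest difference and the largest spread of the 15 probe sets, and both ranks rested on wild type 1 (1443969_at). It read 7.86, 8.33, 8.45, 8.55 and 8.30 in deficient 1 to 5 and 7.06, 8.28, 7.96, 8.09 and 8.32 in wild type 1 to 5. Wild type 1 lay below every other array, and the other 9 lay between 7.86 and 8.55 with the genotypes mixed. The means were 8.30 ± 0.27 (SD, n = 5) in deficient and 7.94 ± 0.52 in wild-type mice. Deficient muscle thus had 1.28 times the wild-type level of Irs2, and the 95% interval ran from 0.857 to 1.91. On the log2 scale the difference was 0.36 ± 0.25 SE (adjusted p = 0.931, limma). Without wild type 1 the Irs2 difference was 0.13 on the log2 scale, less than that of Igfbp5 (0.20) and smaller in size than that of Igf1 (−0.24). Its other 9 arrays also spanned less than the same arrays of Igf1, which ran from 7.96 to 8.74. In Irs2, without the 5 marker-carrying arrays the difference was 0.16 ± 0.10 SE (limma adjusted p = 0.902).

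**Figure D2:**
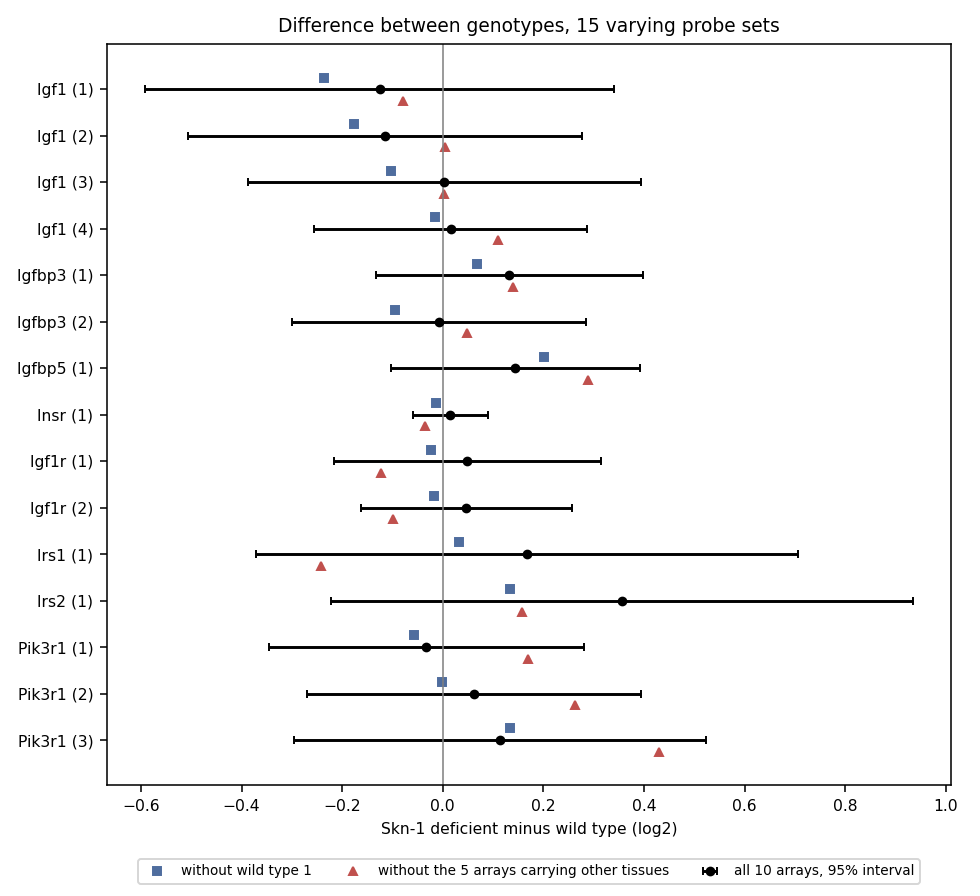
Log2 difference, Skn-1 deficient minus wild type, for the 15 ordinary probe sets, numbered from the brightest within each gene. Circles and bars are limma estimates with 95% intervals over 10 arrays, squares leave out wild type 1, and triangles leave out the 5 arrays carrying genes of other tissues; every bar crosses 0.

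Downstream of the receptors, Pik3r1 encodes the regulatory subunits that tie the catalytic subunit of phosphatidylinositol 3-kinase to Irs1 and Irs2. Its brightest probe set (1438682_at) read 8.54, 8.99, 8.53, 8.24 and 8.53 in deficient 1 to 5 and 8.50, 8.82, 8.73, 8.48 and 8.47 in wild type 1 to 5. The highest array, deficient 2, and the lowest, deficient 4, were of the same genotype. The log2 difference was −0.03 ± 0.14 SE (limma adjusted p = 0.9996). The other 2 ordinary probe sets differed by 0.06 ± 0.14 SE and 0.11 ± 0.18 SE (limma adjusted p = 0.992 and 0.983). Without the 5 marker-carrying arrays the 3 differences were 0.17, 0.26 and 0.43, with adjusted p from 0.894 to 0.960 (limma).

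Grb10, an adaptor that binds the insulin and IGF receptors and restrains them, could not be followed either. All 3 of its probe sets were low-variation, at 8.25, 6.26 and 6.02, and the brightest of these stood well above the median of all probe-set means.

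Where a gene had more than 1 ordinary probe set, their values were compared from array to array. There were 11 such pairs, of Igf1, Igfbp3, Igf1r and Pik3r1, and r was lowest in the 2 pairs with the middle probe set of Pik3r1. The 6 pairs of Igf1 had r between 0.839 and 0.961 over the 10 arrays and rho between 0.818 and 0.964 (permutation p adjusted over the 11 pairs from 0.00033 to 0.00439 for r). Without the 2 arrays farthest from the median these r ran from 0.767 to 0.971. The swings of Igf1 between animals were therefore read alike by 4 probe sets. The pair of Igf1r had r = 0.927 and rho = 0.915 (permutation, adjusted p = 0.000623 and 0.000959), and 0.887 without deficient 1 and wild type 1.

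Igfbp3 had r = 0.838 and rho = 0.794 (permutation, adjusted p = 0.00388 and 0.0108), and r was 0.592 without deficient 2 and wild type 1, and within the genotypes it was 0.948 in deficient and 0.907 in wild-type arrays. Its difference between genotypes was 0.14 larger in the brighter probe set than in the other (exact two-sided permutation p = 0.0397, adjusted p = 0.349 over 11 pairs). For Pik3r1 the brightest and the dimmest ordinary probe sets had r = 0.887 and rho = 0.915 (permutation, adjusted p = 0.00171 and 0.000959), and 0.725 without deficient 2 and wild type 2. The middle one had r = 0.733 and rho = 0.612 with the brightest (permutation, adjusted p = 0.0143 and 0.0744), and 0.421 without those 2 arrays. With the dimmest it had r = 0.570 and rho = 0.479 (permutation, adjusted p = 0.0834 and 0.165), and r was 0.608 without deficient 1 and deficient 2. Deficient 1 and wild type 1 were the lowest arrays in the middle probe set of Pik3r1. In the brightest they read 8.54 and 8.50, where the mean of the 10 arrays was 8.58. In the dimmest they read 6.92 and 6.80, where that mean was 6.78. In none of the 11 pairs did the difference between genotypes differ after adjustment (exact permutation, lowest adjusted p = 0.349; the smallest unadjusted p that 5 against 5 arrays can give is 0.00794).

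**Figure D3:**
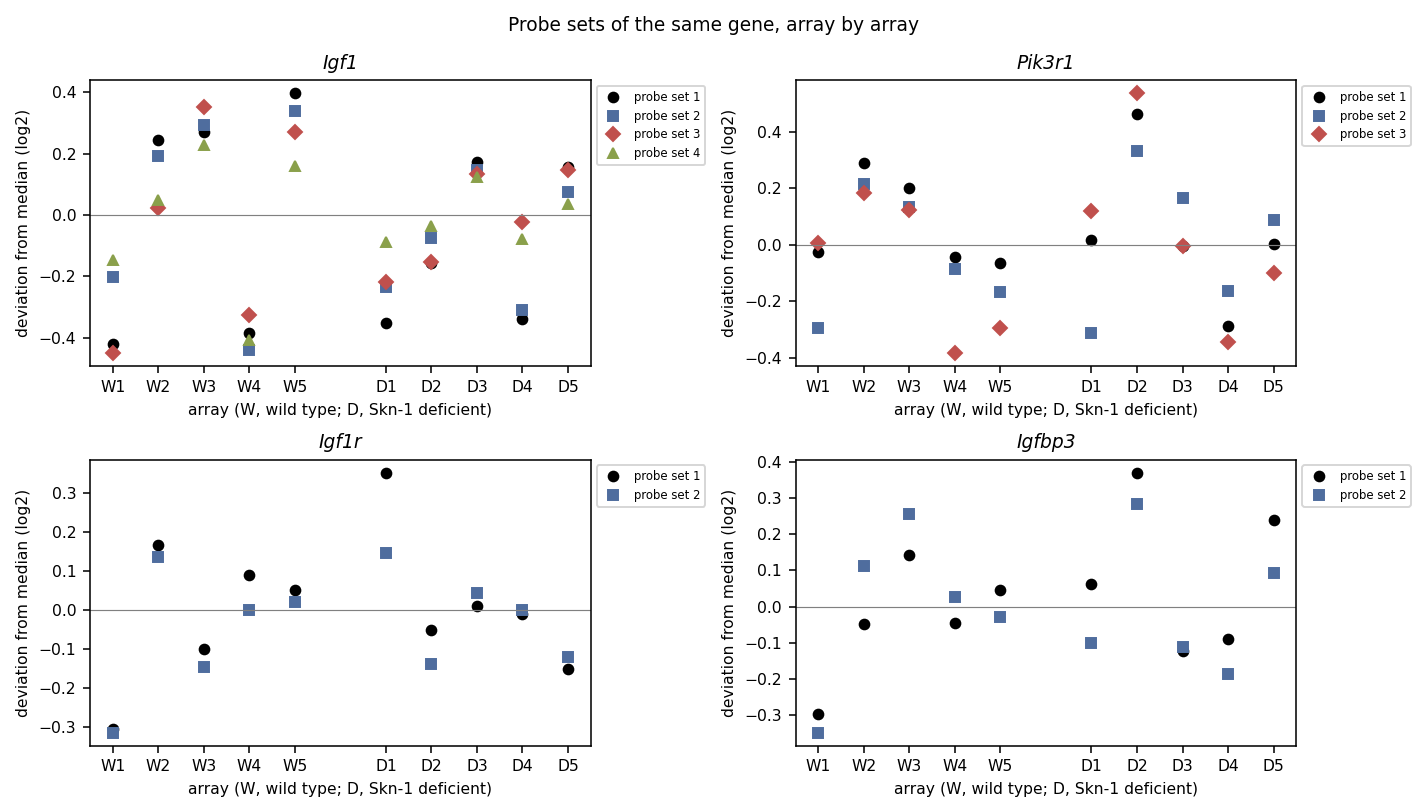
Deviation from the median of the 10 arrays (log2) for each ordinary probe set of Igf1, Pik3r1, Igf1r and Igfbp3, by array, with probe sets numbered from the brightest. The 4 probe sets of Igf1 are high and low in the same animals, while the second probe set of Pik3r1 is lower than its companions in W1 and D1.

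Wild type 1 was the array that most often stood at the low end. Read by their brightest ordinary probe sets, Igf1, Igfbp3, Insr, Igf1r, Irs1 and Irs2 were lowest in it, 6 of the 8 genes. Over all 3846 genes with an ordinary probe set, 24.5% were lowest in wild type 1 and 18.1% highest, against 5.28% to 16.2% lowest in the other arrays. Igfbp5 went the other way and was second highest in it. Wild type 1 carried the epidermis and hair list, with a mean deviation of 1.25, and had the lowest macrophage and fibroblast lists, at −0.45 and −0.25. Its skeletal muscle list was also the lowest, at −0.05, where the highest array stood at 0.07. The part of this in the low values was not tested.

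Among the 8 genes, 28 relations between pairs were computed over the 10 arrays, a set of tests chosen after the values were seen. None passed after adjustment, and 5 had an unadjusted permutation p under 0.05. Igf1r and Irs1 had the highest r, 0.843 (permutation p = 0.00233, adjusted p = 0.0652), with rho = 0.697 (permutation p = 0.0309, adjusted p = 0.216). It was 0.809 within deficient and 0.888 within wild-type arrays, 0.754 without wild type 1 and 0.557 without deficient 1 and wild type 1, so it rested in part on those arrays. Igfbp5 ran against the receptors: with Insr r was −0.674 and rho −0.818 (permutation p = 0.0339 and 0.00614, adjusted p = 0.237 and 0.151), and with Igf1r r was −0.640 and rho −0.782 (permutation p = 0.0461 and 0.0108, adjusted p = 0.258 and 0.151). Without deficient 2 and wild type 2 these r were −0.625 and −0.749. Insr and Irs2 had r = 0.787 but rho = 0.394 (permutation p = 0.0253 and 0.263, adjusted p = 0.237 and 0.736), and r was 0.255 without wild type 1, so the relation rested on that array. Insr and Igf1r had r = 0.692 and rho = 0.721 (permutation p = 0.0325 and 0.0235, adjusted p = 0.237 and 0.216), and 0.388 without deficient 2 and wild type 1.

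**Figure D4:**
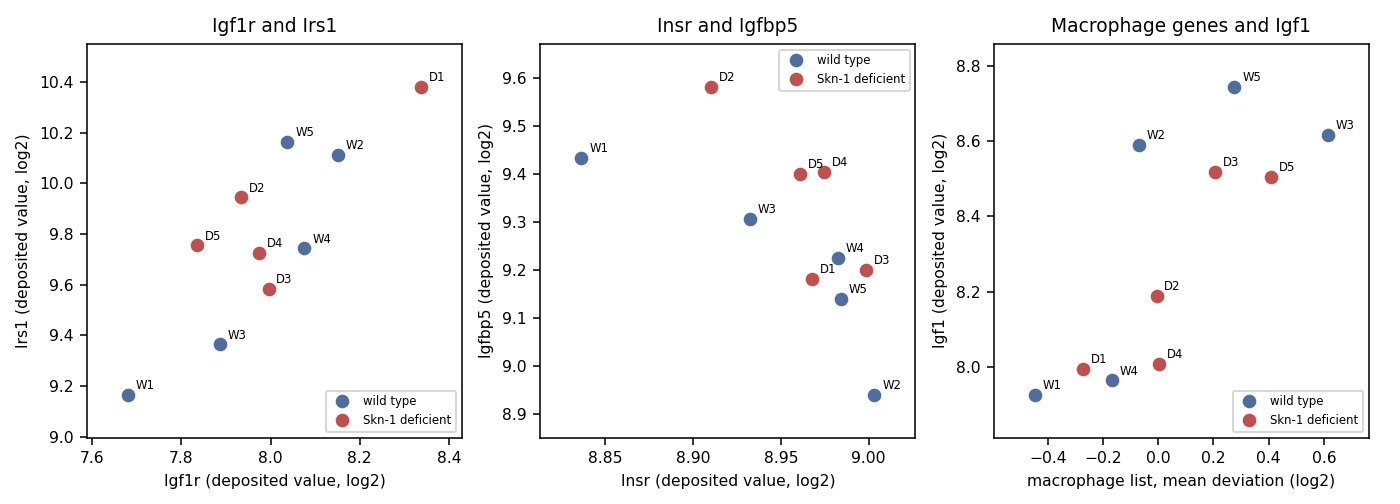
Array by array, Irs1 against Igf1r, Igfbp5 against Insr (all deposited values, log2), and Igf1 against the mean deviation of the macrophage list (log2); W is wild type and D Skn-1 deficient. Irs1 is high where Igf1r is high (r = 0.843), Igfbp5 is low where Insr is high (r = −0.674), and the genotypes are mixed in each panel.

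The genes whose pattern over the 10 arrays was most like that of a member were sought among 3838 other genes with an ordinary probe set, by Pearson r. As the highest of many, these r are descriptions with no test. Igf1r was followed most closely by Zfyve1 (r = 0.965, rho = 0.976) and Rc3h1 (r = 0.953, rho = 0.939), and with Zfyve1 r was 0.942 without the 2 arrays farthest from the median. Irs2 was followed by Prkca, a protein kinase C (r = 0.962, rho = 0.915), and by Timp2, an inhibitor of matrix metalloproteinases (r = 0.933, rho = 0.842). Without deficient 1 and wild type 1, with Irs2 these r were 0.849 and 0.630. For Igf1 these were the kinase Map4k4 (r = 0.952, rho = 0.879) and the chaperone partner Dnaja1 (r = 0.934, rho = 0.855). Irs1 was followed by Zranb1 (r = 0.936, rho = 0.855) and Garem1, an adaptor of growth factor receptors (r = 0.926, rho = 0.842). Insr was followed by Wdfy3 (r = 0.939, rho = 0.721) and Ube4b (r = 0.930, rho = 0.455). For Insr r was 0.679 and 0.666 without its 2 farthest arrays, deficient 2 and wild type 1. Igfbp5 was nearest to Nmrk2, the muscle nicotinamide riboside kinase (r = 0.879, rho = 0.891), and Cdh4 (r = 0.840, rho = 0.830). Igfbp3 was nearest to Mtpn (r = 0.882, rho = 0.879) and the immediate early gene Ier2 (r = 0.876, rho = 0.842). Pik3r1 was nearest to Ctla2b (r = 0.868) and Rgcc (r = 0.863), with rho = 0.539 for both, and r was 0.573 and 0.685 without deficient 2 and wild type 2.

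The wider route was read from a list of 69 genes, of which 64 were measured, by 156 probe sets. None of the 156 passed an adjusted p of 0.05 (limma, 0.191% over all probe sets; 7 of its 57 ordinary ones had an unadjusted p under 0.05). Besides the 10 genes above there were 42 ordinary probe sets from 21 genes, 27 with a higher and 15 with a lower mean in deficient mice, and their median difference was 0.03. At an unadjusted p under 0.05, 7 of the 42 were higher in deficient mice and 0 lower, where 7.44% and 2.48% of all ordinary probe sets were. The count under 0.05 was 4 without wild type 3 and 3 without the 5 marker-carrying arrays, and 5 to 10 without any other single array. Of the 7, 3 were probe sets of Deptor, so they are not independent. By arm, 4 of the 7 were in the mTOR arm and 1 each in phosphatidylinositol 3-kinase, Akt and its targets, and the brakes.

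Deptor, a protein that binds mTOR and inhibits it, was the gene of this list with the smallest p. Its brightest probe set (1453571_at) read 8.98, 9.05, 9.44, 9.37 and 9.03 in deficient 1 to 5 and 8.68, 8.92, 8.76, 8.85 and 8.83 in wild type 1 to 5. Every deficient array lay above every wild-type array, which held for 3 of the 42 probe sets and for 3.96% of all ordinary ones. The log2 difference was 0.37 ± 0.10 SE (unadjusted p = 0.00624, limma adjusted p = 0.398). The other 3 ordinary probe sets of Deptor differed by 0.25, 0.36 and 0.28, with unadjusted p of 0.0254, 0.0282 and 0.178 (limma). In each of these 3 the genotypes overlapped.

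The next genes by p also missed the threshold after adjustment. Rictor, which defines the mTOR complex that phosphorylates Akt, had 1 ordinary probe set among 5, with 6.50 ± 0.13 (SD, n = 5) in deficient and 6.32 ± 0.03 in wild-type mice (limma adjusted p = 0.498). The pseudokinase Trib1 stood at 6.73 ± 0.22 against 6.45 ± 0.05 (limma adjusted p = 0.580), with deficient 1 at 7.10 and the other deficient arrays at 6.57 to 6.73. Neither overlapped between genotypes, though each lay by less than 0.05 clear of the other genotype and near the median level of all probe sets. Tbc1d4, the Akt substrate that holds glucose transporters inside the cell, differed by 0.33 ± 0.12 SE (limma adjusted p = 0.653), with deficient 1 highest at 7.52. Pdpk1, the kinase that activates Akt, differed by 0.19 ± 0.07 SE (limma adjusted p = 0.676), while its other probe set, the brighter one, differed by −0.02. Eif4ebp1, the repressor of translation that mTOR switches off, differed by −0.31 ± 0.16 SE (limma adjusted p = 0.843), and its other 2 probe sets by −0.25 and −0.18. Without the 5 marker-carrying arrays the differences were 0.38 for Deptor, 0.12 for Rictor, 0.21 for Trib1, 0.25 for Tbc1d4, 0.10 for Pdpk1 and −0.44 for Eif4ebp1, with adjusted p from 0.837 to 0.952 (limma).

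**Figure D5:**
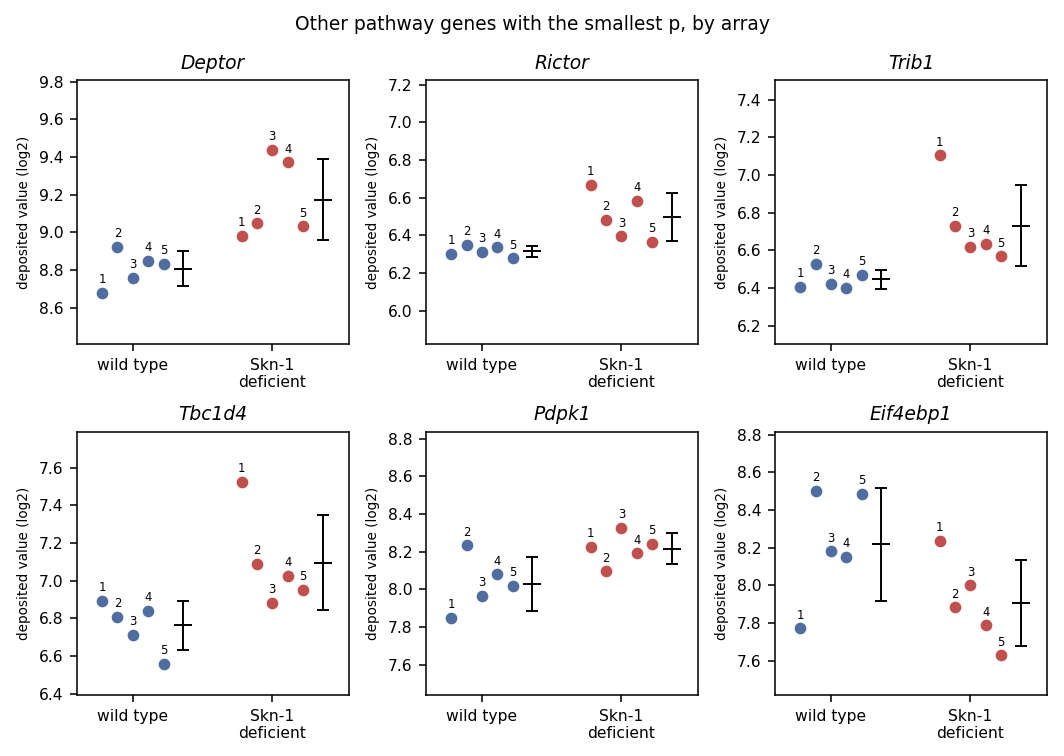
Deposited value (log2) by array for the 6 genes of the wider list with the smallest p, for the ordinary probe set with the smallest p of each. Points are arrays numbered by replicate and bars are mean and SD (n = 5). The groups do not overlap in the probe sets shown for Deptor, Rictor and Trib1, and none passed after adjustment.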

How the data were processed

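The authors deposited 1 table of expression values for the 10 arrays, taken here as log2 from their range (4.93 to 13.96). The values were also taken as already normalized. Array medians lay between 6.23 and 6.24. As 86.2% of probe sets were low-variation, these medians do not show that the ordinary ones were normalized. For the software, method and log base, the labels and the file give nothing (not given in the sources used). Per the labels' protocols, a 3' IVT kit made biotin-labelled RNA from 100 ng per sample. Folds rest on the log2 reading. Of 45101 rows, 64 array controls were left out. Gene names are those of the platform annotation, brought up to date by gene identifier in RefSeq's GRCm38.p6 table: 34945 had 1 gene (34741 matched), 932 several and 9160 none. The fits used limma 3.58.1 in R 4.3.3 on all 45037 probe sets, with Benjamini-Hochberg adjustment, and were tested on simulated data. There, differences were added to 200 ordinary probe sets. Of differences of 0.5 on the log2 scale 36.2% passed, and of those of 1, 77%, with 4.71% of all passes false. A difference of 0.5 or less in a gene here would thus often be missed. Correlations used 100000 permutations. Motifs and figures used Python 3.11.15 and matplotlib 3.10.9.

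The genes, lists and tests were chosen with earlier results of these data known. Named probe sets are each gene's brightest ordinary one and, in the wider list, the 6 genes with the smallest p. Alternatives covered scaling, moderation, weights, the replicate number as a block, filters, each array left out and the arrays that carried other tissues; a pseudocount did not apply to log2 values. The low-variation class limits what can be read for Igf2 and Grb10.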

Additional observations from a re-analysis of the deposited data

How the results depend on the processing

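The count of insulin and IGF probe sets past the threshold was 0 under all 20 alternatives, as was that of the wider list, and it was 0 of 10 genes with the brightest, the mean or the most variable probe set per gene. The count over all probe sets, 86, was 43 after quantile normalization, 143 with ordinary probe sets alone, 31 to 57 without 1 array, and 0 without the 5 arrays carrying lymphocyte, epidermis or any other non-muscle list (limma; 2672 had an unadjusted p under 0.05), a fit on fewer arrays. With a replicate block it was 5. Same-numbered arrays correlated in their deviations at −0.40 to 0.32, and so few correlations cannot decide whether the numbers pair the mice.

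Some signs turned, also that of Irs1 (0.17 over all arrays), and the cause was not tested. Without the 5 arrays the differences were 0.0052 (Igf1 probe set 2, counted from the brightest), 0.049 (Igfbp3 probe set 2), −0.035 (Insr), −0.12 and −0.10 (Igf1r), −0.24 (Irs1) and 0.17 (brightest Pik3r1). Igf1 probe set 3 was at −0.0017 after quantile normalization and −0.040 with array weights, and Igf1r at −0.0075 with array weights. Leaving out 1 array gave −0.103 to 0.098 and −0.080 to 0.078 (Igf1 probe sets 3 and 4), −0.096 to 0.055 (Igfbp3 probe set 2), −0.013 to 0.029 (Insr), −0.031 to 0.095 and −0.017 to 0.096 (Igf1r), and −0.139 to 0.049, −0.016 to 0.145 and −0.0095 to 0.21 (Pik3r1). Igfbp5, Irs2 and the brightest Igf1 and Igfbp3 kept their sign in all 20. So did the 6 genes named from the wider list, but these were picked by smallest p in the same data. That choice favours a stable sign, so nothing is read from it. Changing the moderation, adding the replicate block or filtering probe sets leaves a difference unchanged, so no sign could turn there. Leaving out arrays with lymphocyte or epidermis genes and arrays with any non-muscle list drops the same 5 arrays. Signal over background was not given for these arrays.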

Other observations

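Of the 48 relations between genes and marker lists, 5 had an unadjusted permutation p of r under 0.05 and none passed after adjustment; that of Igf1 with macrophages is given above. Irs2 had r = 0.756 and rho = 0.830 with the fibroblast list (permutation p = 0.00644 and 0.00474, adjusted p = 0.200 and 0.228). This r was 0.757 within deficient and 0.674 within wild-type arrays, and 0.547 without wild type 1. Without deficient 1 and wild type 1 it was 0.428, so the relation rested in part on those arrays. All 10 fibroblast markers were measured and varied, with mean deviations from −0.08 to 0.21 in deficient and −0.25 to 0.15 in wild-type arrays. Irs2 also had r = 0.641 and rho = 0.709 with the skeletal muscle list (permutation p = 0.0297 and 0.0269, adjusted p = 0.356 and 0.430). This r was 0.628 without wild type 1 and 0.518 without deficient 1 and wild type 1. Of the 10 skeletal muscle markers 6 varied, with mean deviations from −0.04 to 0.07 in deficient and −0.05 to 0.04 in wild-type arrays. Irs1 had r = 0.654 and rho = 0.588 with the endothelial list (permutation p = 0.0405 and 0.0791, adjusted p = 0.389 and 0.728). Without deficient 1 and wild type 1 this r was 0.652. Igfbp5 had r = −0.701 and rho = −0.564 with the endothelial list (permutation p = 0.0236 and 0.0969, adjusted p = 0.356 and 0.728), and −0.472 without deficient 2 and wild type 2. Of the 10 endothelial markers 6 varied, with mean deviations from −0.08 to 0.15 in deficient and −0.09 to 0.24 in wild-type arrays.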
